A study of Mus musculus with 24 samples.

Results

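The genes described here are 42 cell cycle and DNA replication genes, taken by symbol from a list of names and found in every deposited count table among 54658 gene symbols. They fall into 18 S-phase members, 22 mitotic members, and the pair Ccnd1 (cyclin D1) and Cdkn1a (p21). They were measured by poly(A) RNA sequencing in C57BL/6 male mice aged 7 to 12 weeks that had received either β-nicotinamide mononucleotide (β-NMN, an NAD+ precursor) by intraperitoneal injection at 185 mg/kg/day, or saline vehicle. In the peritonitis model, 1 mL of 4% thioglycollate medium (TGC) drew leukocytes into the peritoneum, doses were given once a day for 3 days starting with the TGC, and the lavage cells of 6 vehicle and 6 β-NMN mice were plated and exposed for 6 h to E. coli at 15 bacteria per cell. In the sepsis model, cecal ligation and puncture (CLP), dosing began right after surgery, and hearts and lungs were collected 24 h after it from the same 3 vehicle and 3 β-NMN mice. No unstimulated cells and no uninjured animals entered these comparisons, so each one contrasts β-NMN with vehicle under the same challenge.

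Total counts ran from 31126823 to 112456050 per library in peritoneal cells, from 27319513 to 68523239 in hearts and from 8915366 to 28356786 in lungs. The peritoneal libraries fell into a shallow and a deep class, with 3 vehicle and 4 β-NMN libraries below 70000000 counts and the other 3 vehicle and 2 β-NMN libraries above it. Vehicle replicate 2 stood apart in each organ, and in lungs it was also the shallowest library, so values of named genes that rest on it are given with and without it. The defining markers matched the labels: the summed level of 8 macrophage markers was 5721 to 8908 CPM in vehicle and 10916 to 12508 CPM in β-NMN peritoneal cells, 6 cardiomyocyte markers summed to at least 30476 CPM in every heart, and 6 lung epithelial markers to at least 54841 CPM in every lung. Levels are given as CPM, read counts scaled by library size after TMM adjustment. A gene is called where edgeR's quasi-likelihood test gave a Benjamini-Hochberg adjusted p below 0.05 over all genes tested in that tissue, and every adjusted p below comes from that test unless another is named.

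Cells enter S phase when cyclin D and cyclin E kinases release E2F factors from RB proteins, and E2F then switches on the genes that license origins, build the MCM helicase and make nucleotides. Later, in G2 and mitosis, MYB and FOXM1 act with the DREAM-related MuvB complex on a second wave of genes for cyclin B, the spindle, the checkpoint and cytokinesis. Most tissue macrophages and cardiomyocytes divide rarely, and p21, a p53 target, holds cyclin-dependent kinases in check.

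The promoters of both classes carry different short elements, and a few are printed here because the genes behind them changed strongly or against their class; they were chosen with those changes known. RefSeq promoter windows (GRCm38.p6, 250 bases before to 50 after the annotated start) were found for 34 of the 42 members. The E2F-like elements searched on either strand were TTCCCGC and, as further forms of the same element, TTTGGCG as well as the closely related TTTCGCG. One or more of them was present in 11 of 19 S-phase windows (57.9%) and in 1 of 17 mitotic windows (5.88%), against 6.72% of all 32851 windows. The cell cycle homology region (CHR; TTTGAA or TTCGAA, either strand) was present in 13 of 17 mitotic windows (76.5%) and in 3 of 19 S-phase windows (15.8%), against 19.2% of all windows. CCAAT, on either strand, was in 88.2% of mitotic, 68.4% of S-phase and 37.4% of all windows. These matches describe the letters in the windows and say nothing of which factor was bound. The 160 bases before the start of 3 MCM subunit genes are shown 5′ to 3′ on the gene's strand, with E2F-like matches of either strand in capitals; Mcm5 and Mcm7 fell with β-NMN in peritoneal cells, whereas Mcm6 rose.

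Mcm5 (chr8:75109349-75109508, plus strand): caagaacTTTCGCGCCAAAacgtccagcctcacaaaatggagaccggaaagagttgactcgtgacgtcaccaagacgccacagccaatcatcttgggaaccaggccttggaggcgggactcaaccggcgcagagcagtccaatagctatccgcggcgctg
Mcm6 (chr1:128359706-128359865, minus strand): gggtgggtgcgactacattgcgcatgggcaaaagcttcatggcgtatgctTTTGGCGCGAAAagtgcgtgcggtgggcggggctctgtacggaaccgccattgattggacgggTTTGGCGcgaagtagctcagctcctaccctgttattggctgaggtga
Mcm7 (chr5:138171267-138171426, minus strand): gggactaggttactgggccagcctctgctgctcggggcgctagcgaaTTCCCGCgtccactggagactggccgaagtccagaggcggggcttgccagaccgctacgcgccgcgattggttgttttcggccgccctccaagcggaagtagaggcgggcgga

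All 3 stretches hold an E2F-like match, and overlapping matches on opposite strands are joined in Mcm5 and in the upstream element of Mcm6. The Mcm7 window starts inside the longer gene span of the GENCODE annotation. The same 160 bases are shown for 3 mitotic genes that fell, with CHR matches in capitals (TTCAAA is TTTGAA read on the other strand).

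Top2a (chr11:99024190-99024349, minus strand): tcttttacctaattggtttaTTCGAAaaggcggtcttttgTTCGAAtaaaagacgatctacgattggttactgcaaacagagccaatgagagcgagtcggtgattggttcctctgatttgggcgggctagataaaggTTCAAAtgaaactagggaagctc
Mki67 (chr7:135716380-135716539, minus strand): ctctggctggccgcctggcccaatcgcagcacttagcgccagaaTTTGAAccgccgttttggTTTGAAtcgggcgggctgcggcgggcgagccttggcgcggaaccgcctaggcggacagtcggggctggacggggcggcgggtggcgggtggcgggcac
Cdc20 (chr4:118437344-118437503, minus strand): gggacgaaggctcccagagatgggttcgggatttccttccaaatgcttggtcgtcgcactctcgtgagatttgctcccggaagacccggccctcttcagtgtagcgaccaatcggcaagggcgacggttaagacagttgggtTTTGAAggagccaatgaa

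Top2a holds 3 CHR matches in its stretch, Mki67 holds 2 and Cdc20 holds 1, and the annotated starts lie just after the last base printed.

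In peritoneal cells, most S-phase and mitotic transcripts were lower after β-NMN, and a few were higher. Of 18 S-phase members, 14 were called lower and 3 higher; of 22 mitotic members, 16 were called lower and 1 higher; Ccnd1 and Cdkn1a were not called. This comparison moved much of the transcriptome: 27.9% of the 14985 genes tested were called lower and 23.7% called higher. The groups did not overlap, with every β-NMN library below every vehicle library, for 9 S-phase and 10 mitotic members, against 14.0% of all genes tested, and the reverse held for Mcm6 and Tpx2, against 12.6%. The median log2 fold change was -0.64 over S-phase members and -1.04 over mitotic members, beside -0.02 over all genes tested. Bulk RNA cannot tell fewer cycling cells from less RNA per cell. The plot of peritoneal values by library shows every member of both classes.

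**Figure D1:**
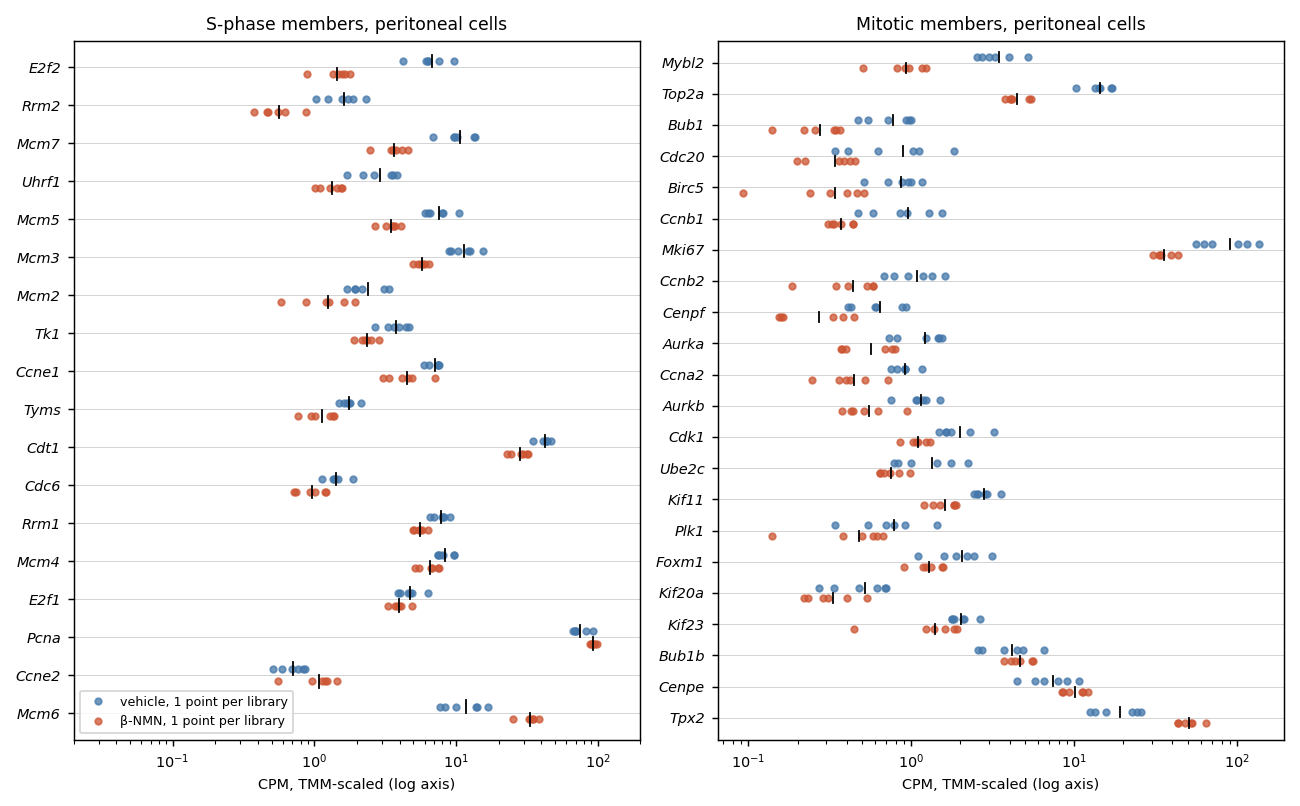
CPM (log axis) of the 18 S-phase members (left) and 22 mitotic members (right) in peritoneal cells, 1 point per library, 6 vehicle and 6 β-NMN libraries, with black ticks at the group means and genes ordered by fold change. Most β-NMN points sit left of the vehicle points, and Mcm6 and Tpx2, at the bottom of each panel, sit to the right with no overlap.

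Among the replication licensing genes, the MCM helicase subunits split. Mcm7 (chr5:138164583-138172422, GRCm38) ran from 6.89 to 13.7 CPM (median 9.95) in vehicle and 2.47 to 4.58 CPM (median 3.68) in β-NMN libraries, with no overlap, a log2 fold change of -1.53 ± 0.18 (SE; edgeR adjusted p = 6.38e-06). Mcm7 shares 12.6% of its exon bases with other annotated genes, among them Ap4m1 and Cops6, and reads there cannot be assigned to a gene without strand. Mcm5 ran from 6.08 to 10.5 CPM (median 7.31) in vehicle and 2.7 to 4.08 CPM (median 3.6) in β-NMN libraries, and Mcm3 from 8.92 to 15.6 CPM (median 11.2) in vehicle and 4.93 to 6.47 CPM (median 5.77) in β-NMN libraries; both fell in every β-NMN library relative to every vehicle library, by 1.13 ± 0.15 and 1.00 ± 0.14 on the log2 scale (edgeR adjusted p = 2.25e-05 and 3.22e-05). Mcm2 ran from 1.71 to 3.37 CPM (median 2.06) in vehicle and 0.582 to 1.94 CPM (median 1.24) in β-NMN libraries and Mcm4 from 7.44 to 9.69 CPM (median 7.87) in vehicle and 5.1 to 7.64 CPM (median 6.72) in β-NMN libraries. Both groups overlapped, and the log2 fold changes were -0.93 ± 0.27 and -0.35 ± 0.12 (edgeR adjusted p = 0.00941 and 0.0275). Mcm4 lost its call in 7 of the 12 fits that left out 1 library each: vehicle replicates 2, 4 and 6 and β-NMN replicates 1, 3, 5 and 6.

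Mcm6 (chr1:128331590-128359664, GRCm38), a subunit of the same hexamer, went the other way. It ran from 7.76 to 16.7 CPM (median 11.9) in vehicle and 25.1 to 38.4 CPM (median 34.1) in β-NMN libraries. Every β-NMN library was above every vehicle library, and the log2 fold change was 1.49 ± 0.18 (edgeR adjusted p = 9.43e-06), a 2.81-fold rise. The exact two-sided permutation test of mean log2 CPM gave p = 0.00216, the smallest that 6 against 6 can give. That value follows from the lack of overlap alone and adds nothing to it. Per kb of exon, Mcm6 stood at 0.699 to 1.9 (median 1.32) times the mean of the other 5 subunits in vehicle libraries and at 5.93 to 7.96 (median 6.8) times in β-NMN libraries, whereas the same ratio was 0.947 to 1.19 (median 1.02) and 0.997 to 1.12 (median 1.11) in hearts and 1.14 to 1.34 (median 1.27) and 1.2 to 1.4 (median 1.3) in lungs. No exon of Mcm6 overlaps another annotated gene. Its log2 fold change was 1.47 among the deep libraries alone and 1.64 among the shallow ones.

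**Figure D2:**
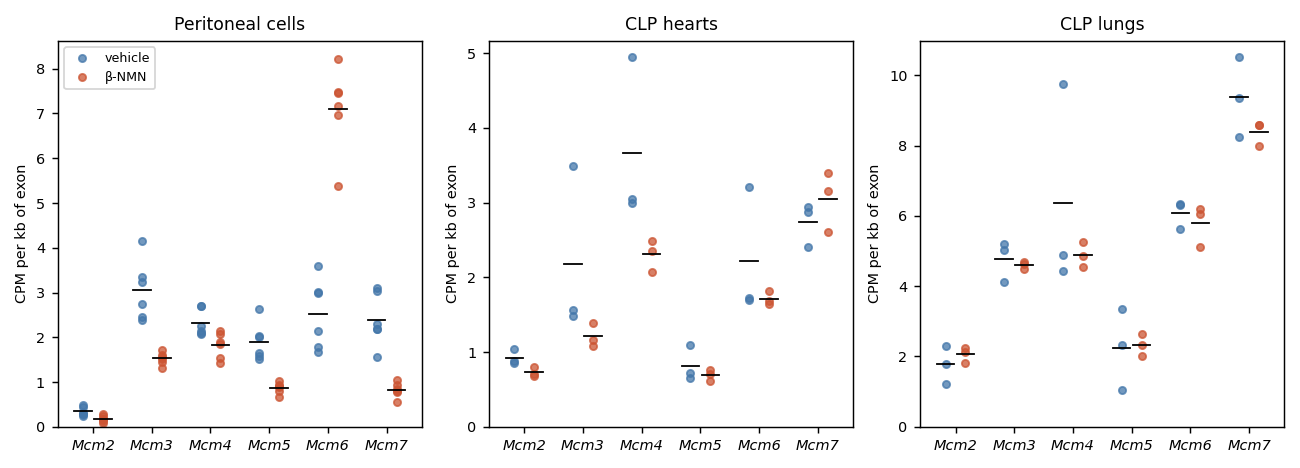
CPM per kb of exon for Mcm2 to Mcm7 in peritoneal cells (6 against 6 libraries), CLP hearts and CLP lungs (3 against 3 each), 1 point per library, with black lines at the group means. In peritoneal cells the mean of Mcm6 was 2.53 in vehicle and 7.11 in β-NMN libraries, while Mcm3, Mcm5 and Mcm7 were lower with β-NMN; the single high vehicle points of Mcm4 in both organs belong to replicate 2.

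The loaders of the helicase were lower. Cdt1, which brings the MCM complex to origins, ran from 34.8 to 46.5 CPM (median 43.4) in vehicle and 22.7 to 32.4 CPM (median 29.2) in β-NMN libraries, with no overlap, and fell by 0.58 ± 0.10 on the log2 scale (edgeR adjusted p = 0.000292). Its partner Cdc6 ran from 1.13 to 1.87 CPM (median 1.39) in vehicle and 0.714 to 1.21 CPM (median 0.975) in β-NMN libraries, with overlap, and its log2 fold change was -0.57 ± 0.19 (edgeR adjusted p = 0.0213), a call lost in 3 of 12 such fits, without vehicle replicate 6, β-NMN replicate 3 or β-NMN replicate 5. Per kb, Cdt1 (13.4 CPM per kb in vehicle) was far above Cdc6 (0.274), and after Pcna it was the highest S-phase member. Pcna (chr2:132249162-132253314, GRCm38), the sliding clamp of replication and repair, was the highest of the class per kb (31.3 in vehicle and 38.7 in β-NMN) and ran from 66.6 to 92.4 CPM (median 69.8) in vehicle and 88.4 to 98.7 CPM (median 92.7) in β-NMN libraries. It was called higher, by a log2 fold change of 0.31 ± 0.09 (edgeR adjusted p = 0.00885), with overlapping groups.

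The enzymes of deoxynucleotide supply were all called lower. Rrm2 (chr12:24708241-24714146, GRCm38), the S-phase subunit of ribonucleotide reductase, ran from 1.02 to 2.32 CPM (median 1.64) in vehicle and 0.373 to 0.867 CPM (median 0.514) in β-NMN libraries, with no overlap and a log2 fold change of -1.56 ± 0.25 (edgeR adjusted p = 0.000117). Rrm1, the large subunit of the same enzyme, ran from 6.59 to 9.05 CPM (median 8.06) in vehicle and 4.97 to 6.35 CPM (median 5.5) in β-NMN libraries, also with no overlap, and changed by -0.50 ± 0.11 (edgeR adjusted p = 0.00112); the difference between these changes was not tested. Thymidylate synthase (Tyms) ran from 1.49 to 2.15 CPM (median 1.73) in vehicle and 0.768 to 1.38 CPM (median 1.15) in β-NMN libraries and thymidine kinase (Tk1) from 2.69 to 4.68 CPM (median 3.81) in vehicle and 1.92 to 2.84 CPM (median 2.31) in β-NMN libraries. The β-NMN libraries lay below all vehicle libraries for Tyms but not for Tk1, and the log2 fold changes were -0.63 ± 0.18 and -0.70 ± 0.15 (edgeR adjusted p = 0.00866 and 0.00149). Uhrf1, which takes part in copying DNA methylation onto new strands, ran from 1.71 to 3.83 CPM (median 3.04) in vehicle and 1.01 to 1.58 CPM (median 1.37) in β-NMN libraries, with no overlap and a log2 fold change of -1.13 ± 0.21 (edgeR adjusted p = 0.000387).

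E2f2 (chr4:136172394-136196057, GRCm38), an activating E2F factor, showed the largest fall of the 42 members. It ran from 4.25 to 9.63 CPM (median 6.38) in vehicle and 0.894 to 1.78 CPM (median 1.52) in β-NMN libraries, with no overlap, a log2 fold change of -2.21 ± 0.20 (edgeR adjusted p = 7.26e-07), or 4.62-fold lower. Its relative E2f1 ran from 3.91 to 6.31 CPM (median 4.67) in vehicle and 3.32 to 4.89 CPM (median 3.91) in β-NMN libraries and was not called (log2 fold change -0.25 ± 0.14, edgeR adjusted p = 0.146). The cyclin E genes, which drive entry into S phase, went apart. Ccne1 ran from 5.93 to 7.58 CPM (median 7.46) in vehicle and 3.05 to 7.12 CPM (median 4.38) in β-NMN libraries and was called lower (-0.64 ± 0.17, edgeR adjusted p = 0.00635), while Ccne2 ran from 0.512 to 0.855 CPM (median 0.734) in vehicle and 0.558 to 1.43 CPM (median 1.17) in β-NMN libraries and was called higher (0.60 ± 0.23, edgeR adjusted p = 0.0406). Both cyclin E groups overlapped, 17.4% of the exon bases of Ccne2 are shared with Ints8, and Ccne2 lost its call in 9 of the 12 fits that left out 1 library, all but those without vehicle replicates 2 and 6 and β-NMN replicate 6.

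Of the mitotic members, Mki67 (chr7:135689784-135716361, GRCm38), the Ki-67 proliferation antigen, was the most abundant in vehicle libraries at 8.92 CPM per kb, and it ran from 55.9 to 135 CPM (median 85.2) in vehicle and 30.5 to 43.4 CPM (median 33.9) in β-NMN libraries. The groups did not overlap and the log2 fold change was -1.33 ± 0.20 (edgeR adjusted p = 5.9e-05). Top2a (chr11:98992943-99024189, GRCm38), the topoisomerase that untangles sister chromatids, ran from 10.2 to 16.9 CPM (median 14.3) in vehicle and 3.77 to 5.43 CPM (median 4.12) in β-NMN libraries, with no overlap and a log2 fold change of -1.69 ± 0.14 (edgeR adjusted p = 3.07e-07). Most other mitotic members were scarce: the median member had a mean of 1.27 CPM in vehicle libraries, 8 of 22 means were under 1 CPM in vehicle and 13 of 22 in β-NMN libraries.

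The transcription factors of the mitotic program were lower. Mybl2 (chr2:163054687-163084688, GRCm38), which encodes B-MYB, ran from 2.51 to 5.22 CPM (median 3.13) in vehicle and 0.505 to 1.23 CPM (median 0.936) in β-NMN libraries, with no overlap and a log2 fold change of -1.88 ± 0.23 (edgeR adjusted p = 1.09e-05). Foxm1 ran from 1.09 to 3.13 CPM (median 2.03) in vehicle and 0.899 to 1.56 CPM (median 1.27) in β-NMN libraries, with overlap, and changed by -0.68 ± 0.23 (edgeR adjusted p = 0.0225). Its call was lost when vehicle replicate 3 or 4, or β-NMN replicate 2 or 3, was left out.

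The mitotic cyclins and their kinase fell together. Ccnb1 ran from 0.47 to 1.54 CPM (median 0.9) in vehicle and 0.306 to 0.439 CPM (median 0.354) in β-NMN libraries, Ccnb2 from 0.68 to 1.6 CPM (median 1.06) in vehicle and 0.186 to 0.582 CPM (median 0.472) in β-NMN libraries and Ccna2 from 0.751 to 1.15 CPM (median 0.913) in vehicle and 0.246 to 0.714 CPM (median 0.409) in β-NMN libraries. None of these 3 overlapped between groups, and their log2 fold changes were -1.34 ± 0.29, -1.28 ± 0.29 and -1.04 ± 0.25 (edgeR adjusted p = 0.00148, 0.00211 and 0.00253). Cdk1, the kinase that cyclin B activates, ran from 1.47 to 3.23 CPM (median 1.69) in vehicle and 0.85 to 1.3 CPM (median 1.08) in β-NMN libraries, also without overlap, and changed by -0.87 ± 0.21 (edgeR adjusted p = 0.00286). Ccna2 shares 12.5% of its exon bases with Exosc9.

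Among the checkpoint and anaphase genes, Bub1 ran from 0.473 to 0.993 CPM (median 0.819) in vehicle and 0.14 to 0.363 CPM (median 0.295) in β-NMN libraries, with no overlap and a log2 fold change of -1.47 ± 0.29 (edgeR adjusted p = 0.000671). The related checkpoint gene Bub1b ran from 2.57 to 6.54 CPM (median 4.06) in vehicle and 3.72 to 5.54 CPM (median 4.5) in β-NMN libraries and was not called (log2 fold change 0.17 ± 0.21, edgeR adjusted p = 0.51). Cdc20, the activator of the anaphase-promoting complex, ran from 0.341 to 1.84 CPM (median 0.822) in vehicle and 0.198 to 0.452 CPM (median 0.37) in β-NMN libraries, with overlap, and changed by -1.44 ± 0.39 (edgeR adjusted p = 0.0067). Ube2c, the ubiquitin-conjugating enzyme of that complex, changed by -0.83 ± 0.27 (edgeR adjusted p = 0.0181), and 22.8% of its exon bases are shared with Tnnc2; the call was lost in 1 of 12 fits, without vehicle replicate 3. Birc5 (survivin), a subunit of the chromosomal passenger complex with Aurkb, ran from 0.512 to 1.16 CPM (median 0.911) in vehicle and 0.0931 to 0.51 CPM (median 0.36) in β-NMN libraries, with no overlap and a log2 fold change of -1.36 ± 0.32 (edgeR adjusted p = 0.00269). Aurka and Aurkb, the Aurora kinases, changed by -1.10 ± 0.28 and -1.04 ± 0.25 (edgeR adjusted p = 0.00407 and 0.00306), with overlapping groups. Plk1, a further mitotic kinase, was not called (log2 fold change -0.73 ± 0.36, edgeR adjusted p = 0.101).

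The spindle motors and kinetochore proteins were less uniform. Kif11, the motor that pushes spindle poles apart, ran from 2.42 to 3.55 CPM (median 2.69) in vehicle and 1.19 to 1.89 CPM (median 1.65) in β-NMN libraries, with no overlap and a log2 fold change of -0.82 ± 0.16 (edgeR adjusted p = 0.000647). The cytokinesis kinesins Kif20a and Kif23 had log2 fold changes of -0.67 ± 0.32 and -0.53 ± 0.26 and were not called (edgeR adjusted p = 0.0874 and 0.104); Kif20a shares 29.3% of its exon bases with Cdc23. Cenpf, a kinetochore protein, was called lower (-1.25 ± 0.34, edgeR adjusted p = 0.00626). The kinetochore motor Cenpe ran from 4.42 to 10.7 CPM (median 7.19) in vehicle and 8.39 to 12.1 CPM (median 10.2) in β-NMN libraries and had a positive log2 fold change of 0.46 ± 0.19 that was not called (edgeR adjusted p = 0.0535). DESeq2 called Cenpe higher (DESeq2 adjusted p = 0.0303).

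Tpx2 (chr2:152847964-152895321, GRCm38), the spindle assembly factor that activates Aurora A, was the mitotic member called higher by edgeR. It ran from 12.6 to 25.5 CPM (median 19.1) in vehicle and 43 to 64.3 CPM (median 49.8) in β-NMN libraries, every β-NMN library above every vehicle library, with a log2 fold change of 1.41 ± 0.18 (edgeR adjusted p = 1.82e-05), or 2.66-fold higher. The ratio of Tpx2 to its partner Aurka, each per kb, was 4.4 to 19.1 (median 7.67) in vehicle and 29.7 to 88 (median 55.1) in β-NMN peritoneal cells, against 0.569 to 0.852 (median 0.618) and 0.361 to 0.475 (median 0.467) in hearts and 0.26 to 0.638 (median 0.61) and 0.527 to 0.771 (median 0.607) in lungs. Per kb, Tpx2 was above Aurka in every peritoneal library and below it in every heart and lung. Its log2 fold change was 1.43 among deep and 1.51 among shallow libraries. No exon of Tpx2 overlaps another annotated gene.

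Cdkn1a (chr17:29090976-29100727, GRCm38), the p21 inhibitor of cyclin-dependent kinases, was the most abundant of all 42 members per kb in every tissue, at 201 CPM per kb in vehicle peritoneal cells. It ran from 598 to 782 CPM (median 731) in vehicle and 525 to 718 CPM (median 612) in β-NMN libraries and was not called (log2 fold change -0.22 ± 0.09, edgeR adjusted p = 0.0617). Ccnd1 ran from 3.12 to 9.47 CPM (median 7.45) in vehicle and 6.77 to 8.71 CPM (median 7.84) in β-NMN libraries and was not called (0.21 ± 0.24, edgeR adjusted p = 0.494). Of the exon bases of Ccnd1, 23.4% are shared with LTO1 on the opposite strand, which applies to its level in every tissue.

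Other genes of the same pathways, none of them among the 42, showed where these changes lay. Their counts are to be read against the 27.9% of all genes called lower and 23.7% called higher. Of 31 other replication genes tested, 16 were called lower and 5 higher, with a median log2 fold change of -0.42. Cdc45 and Mcm10, which act in helicase activation, had log2 fold changes of -1.81 ± 0.21 and -1.78 ± 0.19 (edgeR adjusted p = 6.15e-06 and 2.66e-06). Gins2, Rfc2 and Rfc3, parts of the helicase and of the clamp loader of PCNA, were the largest rises, at 0.59 ± 0.23, 0.55 ± 0.10 and 0.55 ± 0.20 (edgeR adjusted p = 0.0422, 0.000248 and 0.0289). Gins2 shares 67.3% of its exon bases with Gse1 on the opposite strand and Rfc2 shares 15.1% with Lat2, so reads there cannot be assigned to a gene without strand, and Gins2 lost its call in 5 of 12 fits that left out 1 library (vehicle replicates 1, 2 and 4 and β-NMN replicates 1 and 5). Of 38 other mitotic genes, 30 were called lower and 0 higher, with a median of -0.96 and a largest fall in Kif18b (-2.07 ± 0.47, edgeR adjusted p = 0.00196), followed by Ncapg (-1.99 ± 0.29, with 13.4% of its exon bases shared with Lcorl) and Anln (-1.68 ± 0.39). Kif18b was scarce, at 0.341 to 1.08 CPM in vehicle and 0 to 0.308 CPM in β-NMN libraries, as was Ncapg, at 0.778 to 1.54 CPM and 0.204 to 0.536 CPM. Cks2, with the smallest p of the list, ran from 15.5 to 27 CPM and from 3.82 to 8.64 CPM (-1.62 ± 0.18, edgeR adjusted p = 4.55e-06). DESeq2 called 0 of these mitotic genes higher, and 31 of the 38 had an unadjusted edgeR p below 0.05, as did 57.3% of all genes tested.

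Upstream of both programs, 2 of 7 G1 cyclin, kinase and Myc genes were called lower and 1 higher, shares close to those of all genes. Ccnd2, the most abundant D cyclin gene per kb (63.7 CPM per kb in vehicle, against 2.07 for Ccnd3 and 1.43 for Ccnd1), ran from 304 to 880.2 CPM (median 596) in vehicle and 169 to 212 CPM (median 183) in β-NMN libraries, with no overlap and a log2 fold change of -1.69 ± 0.19 (edgeR adjusted p = 5.67e-06), and Myc from 157 to 309 CPM (median 196) in vehicle and 72.6 to 118 CPM (median 90.5) in β-NMN libraries, at -1.15 ± 0.18 (edgeR adjusted p = 8.57e-05). Cdk6, a partner kinase of D cyclins, ran from 97.3 to 199 CPM (median 142) in vehicle and 227 to 287 CPM (median 262) in β-NMN libraries and was called higher (0.78 ± 0.14, edgeR adjusted p = 0.000375). Of 16 E2F, RB and DREAM factors, 8 were called lower and 2 higher, led by Rbl2 (-1.57 ± 0.24, edgeR adjusted p = 9.27e-05), E2f7 (-1.11 ± 0.36) and Tfdp2 (-0.76 ± 0.26) among the falls and by Rbl1 (0.53 ± 0.19, edgeR adjusted p = 0.0261) and E2f5 (0.45 ± 0.11) among the rises. Of these, Tfdp2 lost its call in 4 of 12 fits that left out 1 library (vehicle replicates 3 and 4 and β-NMN replicates 3 and 6), E2f7 without vehicle replicate 4 and Rbl1 without β-NMN replicate 6. Of 7 CDK inhibitors, Cdkn1c (p57) was called higher (1.77 ± 0.21, edgeR adjusted p = 1.01e-05) and Cdkn2b (p15) lower (-0.96 ± 0.21, edgeR adjusted p = 0.00148). Of their exon bases, Cdkn1c shares 30.7% with Gm44732 and Rbl2 shares 21% with Aktip and Gm45464.

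Of 15 p53 target genes, which do not include Cdkn1a, 8 were called lower and 2 higher, and the largest falls were in the growth arrest genes Gadd45a (-3.14 ± 0.25, edgeR adjusted p = 2.28e-07) and Btg2 (-2.43 ± 0.14, edgeR adjusted p = 1.13e-08), then Eda2r (-1.54 ± 0.38). Gadd45a shares 19.1% of its exon bases with E230016M11Rik. Aen (0.83 ± 0.13) and Ccng1 (0.41 ± 0.09) were called higher. Of 11 DNA damage checkpoint genes, 4 were called lower, among them Brca1 (-1.41 ± 0.26) and Chek1 (-0.81 ± 0.22), and 3 higher, again close to the shares of all genes. Wee1, the kinase that keeps CDK1 inactive before mitosis, ran from 4.02 to 6.73 CPM (median 4.31) in vehicle and 13.1 to 24.7 CPM (median 18.3) in β-NMN libraries, with no overlap and a log2 fold change of 1.90 ± 0.18 (edgeR adjusted p = 9.13e-07), and Atm (0.92 ± 0.33) and Atr (0.57 ± 0.18) followed. Atm lost its call in 4 of 12 fits, without vehicle replicates 1, 2 or 4 or β-NMN replicate 6. The plot of list fold changes places these genes beside the members.

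**Figure D3:**
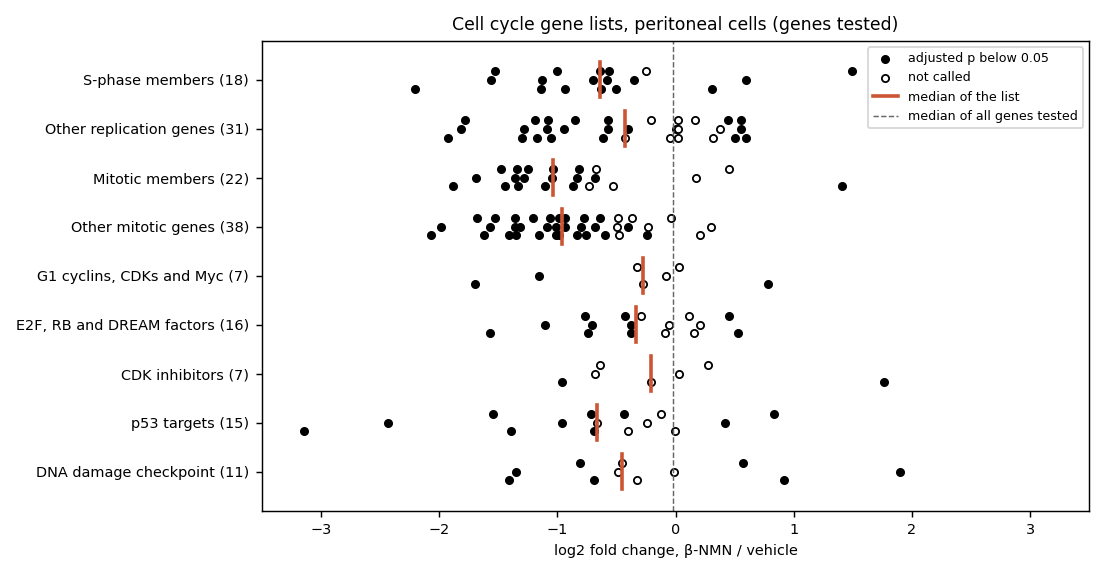
Log2 fold change, β-NMN over vehicle, of each tested gene in 9 cell cycle lists in peritoneal cells (6 against 6 libraries), 1 point per gene with the number tested in brackets; filled points have an adjusted p below 0.05, orange bars are list medians and the dashed line is the median of all genes tested. The medians of the mitotic members (-1.04) and of the other mitotic genes (-0.96) lie furthest left.

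Markers of other cell types moved with the same contrast. The summed level of 7 mature neutrophil markers was 491 to 998 CPM in vehicle and 334 to 467 CPM in β-NMN libraries, with 5 of 7 called lower, 1 higher and a list median of -4.10 on the log2 scale. For 7 granulocyte precursor markers (4 tested) the sums were 6.74 to 13.7 CPM and 1.33 to 2.83 CPM, with 2 called lower. The 5 dendritic cell markers summed to 32.7 to 53 CPM and 14.1 to 18.3 CPM (3 called lower, 1 higher), the 8 T, B and NK cell markers to 36.4 to 190.4 CPM and 26.4 to 85.3 CPM (6 called lower), and the 5 fibroblast markers to 111 to 1173 CPM and 22.9 to 99.8 CPM (5 called lower). In the other direction, 8 macrophage markers had 3 called higher and 0 lower, 6 erythroid markers (4 tested) summed to 2.9 to 35.8 CPM and 47.6 to 123 CPM with all 4 called higher, and 5 resident peritoneal macrophage markers had 2 called in each direction. The remaining lists were 6 eosinophil and mast cell markers, with none called and sums of 63.6 to 147 CPM and 53.6 to 110.1 CPM, and 5 endothelial markers (3 tested), with 2 called lower and sums of 63.3 to 143 CPM and 65 to 116 CPM. Among lists that should be absent, 6 cardiomyocyte markers (3 tested) had 1 called higher and 6 lung epithelial markers (3 tested) had 2 called lower, with sums of 0.855 to 2.53 CPM and 2.14 to 4.98 CPM, and of 3.55 to 6.66 CPM and 0.918 to 2.68 CPM. No marker of these lists was at 0 in all libraries, and the part of these cells in the changes of the cell cycle genes was not tested.

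The summed level of the 22 mitotic members was 118 to 197 CPM in vehicle and 106 to 136 CPM in β-NMN libraries, which overlapped. Its largest terms were Mki67, called lower, with 56.8% of the vehicle and 30.6% of the β-NMN mean, and Tpx2, called higher, with 12.0% and 43.2%. The other 20 mitotic members summed to 37.2 to 58 CPM in vehicle and 27.8 to 34 CPM in β-NMN libraries, without overlap; this split was chosen after the values were seen and was given no test. The 18 S-phase members summed to 194 to 221 CPM and 192 to 213 CPM, which overlapped; Pcna, called higher, was the largest term of that sum. In the deep libraries alone 16 members were called lower, beside 16.6% of all genes tested there, and in the shallow ones 12, beside 14.7%, against 30 in all 12 libraries, while the medians kept their sign (S-phase -0.55 and -0.60, mitotic -0.95 and -0.95).

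**Figure D4:**
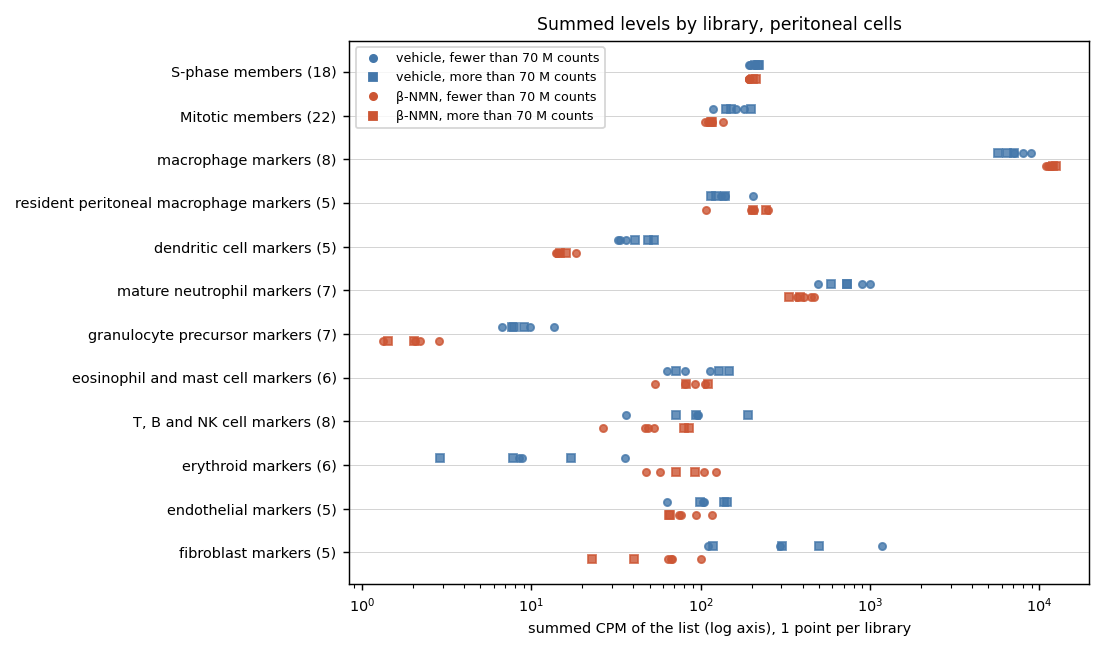
Summed CPM (log axis) of the member classes and of marker lists in peritoneal cells, 1 point per library, with the number of genes in brackets; circles are libraries under and squares libraries over 70 M counts. Macrophage, dendritic, mature neutrophil, granulocyte precursor, erythroid and fibroblast sums separate by treatment within both depth classes.

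In hearts of CLP mice, no member was called. All 18 S-phase members and 20 of 22 mitotic members passed the low-count filter, Bub1 and Mybl2 being too scarce, and 0% of 16245 genes tested were called in this comparison; 2 members, E2f2 and Mcm4, had an unadjusted p below 0.05. Over all genes, 1837 had an unadjusted p below 0.05, and DESeq2 called 224 lower and 38 higher, none of them a member. The lowest adjusted p of any member was 0.435. Log2 fold changes were negative for 14 of 18 S-phase and 14 of 20 mitotic members, with medians of -0.36 and -0.37, beside -0.006 for all genes. Without vehicle replicate 2 these medians were -0.10 and -0.05, so their size rested on that library. The β-NMN hearts lay below all vehicle hearts for 5 S-phase members (Mcm2, Mcm3, Mcm4, Tyms and E2f2) and 1 mitotic member (Top2a), against 11.5% of all genes, and above them for Uhrf1, against 11.6%.

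E2f2 stood at 0.968, 1.17 and 0.407 CPM in vehicle and 0.335, 0.333 and 0.233 CPM in β-NMN hearts, with no overlap and a log2 fold change of -1.52 ± 0.45 (edgeR adjusted p = 0.435), and at -1.25 without vehicle replicate 2. Mcm4 stood at 10.8, 17.8 and 10.9 CPM in vehicle and 8.94, 7.43 and 8.45 CPM in β-NMN hearts, and its log2 fold change of -0.67 ± 0.23 (edgeR adjusted p = 0.435) became -0.40 without that library. For Mcm3, values were 5.84, 13.1 and 5.56 CPM in vehicle and 4.36, 5.23 and 4.06 CPM in β-NMN hearts (-0.84 ± 0.36, edgeR adjusted p = 0.435), and -0.33 without it. Rrm2 also rested on that library. Its values of 1.98, 11.6 and 2.47 CPM in vehicle and 2.12, 2.0 and 1.41 CPM in β-NMN hearts gave -1.55 ± 0.69 (edgeR adjusted p = 0.435). The log2 fold change was -0.28 without vehicle replicate 2, the 1 heart in which this gene was high. That heart was the highest of the 6 for 29 of the 42 members and the lowest for 6, among them Cenpf (1.37 CPM, against 5.42 and 5.44 in the other vehicle hearts).

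Mcm2 stood at 6.1, 7.22 and 5.94 CPM in vehicle and 4.92, 5.56 and 4.71 CPM in β-NMN hearts (-0.34 ± 0.17, edgeR adjusted p = 0.451; -0.26 without vehicle replicate 2). Pcna, the highest S-phase member per kb here too (13.7 CPM per kb in vehicle), stood at 29.6, 37.7 and 31.1 CPM in vehicle and 32.2, 29.2 and 26.7 CPM in β-NMN hearts, with overlap (-0.16 ± 0.14, edgeR adjusted p = 0.585; -0.06 without vehicle replicate 2). Among mitotic members, Top2a stood at 1.35, 2.05 and 1.22 CPM in vehicle and 0.745, 1.18 and 1.02 CPM in β-NMN hearts (-0.64 ± 0.32, edgeR adjusted p = 0.454). Foxm1 stood at 0.676, 1.73 and 0.349 CPM in vehicle and 0.372, 0.462 and 0.574 CPM in β-NMN hearts (-0.96 ± 0.58, edgeR adjusted p = 0.484), with the high value again in vehicle replicate 2. Cdc20, the highest mitotic member per kb (1.42), stood at 2.54, 3.31 and 2.12 CPM in vehicle and 1.68, 2.12 and 2.23 CPM in β-NMN hearts (-0.40 ± 0.26, edgeR adjusted p = 0.5), and Bub1b at 1.12, 1.86 and 1.54 CPM in vehicle and 1.01, 1.18 and 1.16 CPM in β-NMN hearts (-0.43 ± 0.28, edgeR adjusted p = 0.506). Of these mitotic members the groups were apart for Top2a and overlapped for Foxm1, Cdc20 and Bub1b. Without vehicle replicate 2 the log2 fold changes were -0.38 for Top2a, -0.14 for Foxm1, -0.21 for Cdc20 and -0.245 for Bub1b. Mki67 stood at 2.11, 1.56 and 1.66 CPM in vehicle and 2.16, 3.46 and 1.67 CPM in β-NMN hearts, with a positive log2 fold change of 0.45 ± 0.33 that was not called (edgeR adjusted p = 0.53) and was 0.10 without β-NMN replicate 2. Cdkn1a stood at 230.5, 239.8 and 184 CPM in vehicle and 152, 185 and 203 CPM in β-NMN hearts and Ccnd1 at 27, 18.5 and 23.3 CPM in vehicle and 18.9, 23.2 and 19.5 CPM in β-NMN hearts, and in both genes the groups overlapped (log2 fold changes -0.28 ± 0.17 and -0.16 ± 0.17, edgeR adjusted p = 0.483 and 0.644). Leaving out each heart in turn gave -0.38 to -0.16 for Cdkn1a and -0.30 to -0.02 for Ccnd1. With 3 against 3 mice an exact two-sided permutation test cannot give a p under 0.1.

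None of the other pathway genes was called in hearts with edgeR, while DESeq2 called the p53 targets Plk2, higher, and Btg2, lower. By smallest p, the leading gene of each list was Gins1 (-0.75 ± 0.22) among replication genes, Kif15 (-1.19 ± 0.52) among mitotic genes, Myc (-0.79 ± 0.40) in the G1 list, Lin37 (0.34 ± 0.14) in the E2F, RB and DREAM list, Cdkn2d (-0.72 ± 0.31) among CDK inhibitors, Plk2 (0.62 ± 0.11) among p53 targets and Chek2 (0.73 ± 0.32) among checkpoint genes. Without vehicle replicate 2, Myc was at -0.28, Cdkn2d at -0.27 and Chek2 at 0.49. Plk2 stood at 16, 17 and 18.1 CPM in vehicle and 24.4, 27.5 and 26.5 CPM in β-NMN hearts, with no overlap (0.62 ± 0.11, edgeR adjusted p = 0.435, DESeq2 adjusted p = 0.00127). Mature neutrophil markers summed to 21 to 36.1 CPM in vehicle and 13.9 to 15.4 CPM in β-NMN hearts, granulocyte precursor markers to 6.02 to 8.53 CPM and 2.29 to 4.65 CPM, cardiomyocyte markers to 30476 to 49687 CPM and 52021 to 56905 CPM, and fibroblast markers to 1043 to 2146 CPM and 876 to 1269.5 CPM. Dendritic cell markers summed to 13.5 to 24.4 CPM and 25.9 to 29 CPM and endothelial markers to 790 to 815 CPM and 828 to 983 CPM. In the dendritic list 3 of 5 markers were tested and only Clec9a had groups apart. Zbtb46, the largest term of that list (9.97 to 18.4 CPM in vehicle), overlapped, and Xcr1 was negative (-1.27). Among the 6 lists summed here only the fibroblast sums overlapped, but the sums of every remaining marker list overlapped too. Of single genes tested, β-NMN hearts lay below all vehicle hearts for 11.5% and above them for 11.6%. The lowest cardiomyocyte and the highest fibroblast sum were both in vehicle replicate 2. That heart also had the highest T, B and NK cell sum (4.35 CPM, the others 0.96 to 1.47 CPM). The same held for its eosinophil and mast cell sum (4.85 CPM, the others 0.527 to 1.51 CPM). edgeR called no marker of any list and DESeq2 called Ngp, a granulocyte precursor marker, lower and Tie1, an endothelial marker, higher; no marker was at 0 in all hearts. Whether these cells bear on the member values was not tested.

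In lungs of the same mice, all 42 members were tested and none was called, with edgeR or DESeq2, as for 0% of 17008 genes, of which 301 had an unadjusted p below 0.05 and DESeq2 called 8 lower and 1 higher; no member had an unadjusted p below 0.05. S-phase members were split, 9 with positive and 9 with negative log2 fold changes (median 0.0016), and 13 of 22 mitotic members were negative (median -0.17), beside a median of 0.00057 for all genes. β-NMN lungs lay above all vehicle lungs for Ccne1, against 4.47% of all genes, and below them for Top2a, Ccnb2 and Aurka, against 3.75%. The summed level of the 18 S-phase members was 269 to 311 CPM in vehicle and 289 to 295 CPM in β-NMN lungs, and that of the 22 mitotic members was 76.5 to 87.7 CPM and 60.8 to 76.9 CPM.

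Birc5 had the lowest p of the mitotic members in lungs, at 3.58, 15.3 and 3.48 CPM in vehicle and 5.3, 2.75 and 2.16 CPM in β-NMN lungs (-1.11 ± 0.70, edgeR adjusted p = 0.969). Its high value was vehicle replicate 2, without which the log2 fold change was -0.07. Cenpe stood at 1.89, 6.65 and 1.57 CPM in vehicle and 1.89, 2.47 and 1.65 CPM in β-NMN lungs (-0.70 ± 0.63, edgeR adjusted p = 0.969), and turned to 0.21 without that library. Ccnb2 stood at 4.18, 4.33 and 3.69 CPM in vehicle and 3.47, 2.51 and 3.04 CPM in β-NMN lungs (-0.43 ± 0.33, edgeR adjusted p = 0.969) and kept a value of -0.39. Ccna2 stood at 2.63, 3.18 and 2.4 CPM in vehicle and 2.92, 1.39 and 1.72 CPM in β-NMN lungs (-0.44 ± 0.43, edgeR adjusted p = 0.969), and Cdc20, the highest mitotic member per kb (2.76), at 6.34, 1.44 and 7.7 CPM in vehicle and 6.34, 7.11 and 4.62 CPM in β-NMN lungs (0.20 ± 0.57, edgeR adjusted p = 0.971). Without vehicle replicate 2, Cdc20 turned to -0.22, and leaving out each lung in turn gave -0.80 to -0.23 for Ccna2. Vehicle replicate 2 was the highest lung for 16 and the lowest for 18 of the 42 members, Cdc20 among the latter. Mki67 stood at 11.3, 19.4 and 11.1 CPM in vehicle and 11.8, 12.7 and 8.66 CPM in β-NMN lungs (-0.33 ± 0.32, edgeR adjusted p = 0.969), and at -0.03 without replicate 2. Of the mitotic members named here, the groups were apart for Ccnb2 and overlapped for the others.

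Among S-phase members, E2f1 stood at 7.86, 12.1 and 12.6 CPM in vehicle and 17.1, 15.7 and 11.4 CPM in β-NMN lungs (0.44 ± 0.30, edgeR adjusted p = 0.969) and E2f2 at 27.4, 12.7 and 33.9 CPM in vehicle and 32.5, 33.8 and 34.4 CPM in β-NMN lungs (0.44 ± 0.35, edgeR adjusted p = 0.969). The low E2f2 value was vehicle replicate 2, and without it the log2 fold change was 0.13. Rrm1 stood at 27.6, 41.3 and 28 CPM in vehicle and 27.1, 24.9 and 28.4 CPM in β-NMN lungs (-0.26 ± 0.24, edgeR adjusted p = 0.969) and Mcm4 at 16, 35 and 17.6 CPM in vehicle and 17.5, 18.9 and 16.3 CPM in β-NMN lungs (-0.37 ± 0.34, edgeR adjusted p = 0.969); without that library they were at -0.05 and 0.07. The groups overlapped for all 4 genes. Pcna was nearly level, at 56.8, 56.8 and 58.9 CPM in vehicle and 54.6, 56.6 and 59.4 CPM in β-NMN lungs, with a log2 fold change of -0.02 ± 0.19 (edgeR adjusted p = 0.994), and Mcm2 stood at 12.4, 8.52 and 16 CPM in vehicle and 12.7, 14.8 and 15.6 CPM in β-NMN lungs (0.21 ± 0.29, edgeR adjusted p = 0.969). Cdkn1a stood at 447, 349 and 378 CPM in vehicle and 304, 211 and 363 CPM in β-NMN lungs (-0.42 ± 0.29, edgeR adjusted p = 0.969) and Ccnd1 at 61, 24.8 and 74.8 CPM in vehicle and 47.5, 76.8 and 54 CPM in β-NMN lungs (0.15 ± 0.42, edgeR adjusted p = 0.971), with overlap in both. Without vehicle replicate 2, Mcm2 was at 0.02 and Ccnd1 turned to -0.19. Leaving out each lung in turn gave 0.27 to 0.60 for E2f1 and -0.60 to -0.23 for Cdkn1a.

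No other pathway gene was called in lungs, and the smallest p in each list belonged to Rpa2 (-0.88 ± 0.55), Nek2 (-1.34 ± 0.58), Myc (-0.55 ± 0.31), Rb1 (0.38 ± 0.27, with 14.9% of its exon bases shared with other annotated genes), Cdkn1b (0.35 ± 0.22), Gadd45a (-0.88 ± 0.57) and Chek2 (-0.52 ± 0.39), in the order of lists given for hearts. Rpa2, Nek2 and Gadd45a were each highest in vehicle replicate 2, at 49.6, 53.5 and 57.5 CPM. Without that library Rpa2 was at 0.04, Gadd45a at 0.09, Nek2 at -0.41, Myc at -0.31 and Chek2 at -0.13, and without β-NMN replicate 2 Rb1 was at 0.17 and Cdkn1b at 0.23. Macrophage markers summed to 4253, 1461 and 4571 CPM in vehicle and 5225 to 5767 CPM in β-NMN lungs. Dendritic cell markers summed to 42 to 75.6 CPM and 77 to 97.2 CPM, and neither list overlapped. The 1461 and the 42 CPM were vehicle replicate 2. Of the macrophage sums in vehicle lungs, Lyz2 alone gave 3685, 1059 and 3920 CPM. Within the macrophage list 4 markers had positive and 4 negative log2 fold changes (median 0.04), and only Lyz2 had groups apart. Granulocyte precursor markers summed to 328 to 622 CPM in vehicle and 180.0 to 341 CPM in β-NMN lungs. Erythroid markers summed to 1613 to 7199 CPM and 1910.0 to 2412 CPM, and cardiomyocyte markers to 252 to 415 CPM and 74.7 to 245 CPM. The 7199 and the 415 CPM were vehicle replicate 2, and the other vehicle lungs had erythroid sums of 3357 and 1613 CPM. No marker was called and none was at 0 in all lungs, and the part of these cells in the member values was not tested.

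Hearts and lungs of the same mice were also compared for their response in 1 model of 12 libraries, with the organ by treatment interaction as the term tested. This model had no term for the mouse, and with the mouse as a block 0 members were called as well. None of the 42 members was called, as for 0% of 18318 genes tested, DESeq2 called none of the members, and 797 of all genes and 1 member had an unadjusted p below 0.05. That member was E2f2, whose difference in log2 fold change was -1.96 ± 0.60, hearts minus lungs (edgeR adjusted p = 0.96), and -1.42 without the mouse of vehicle replicate 2. The peritoneal contrast was fitted in its own table and was not tested against the organs. The plot of fold changes by tissue sets the 3 comparisons side by side.

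**Figure D5:**
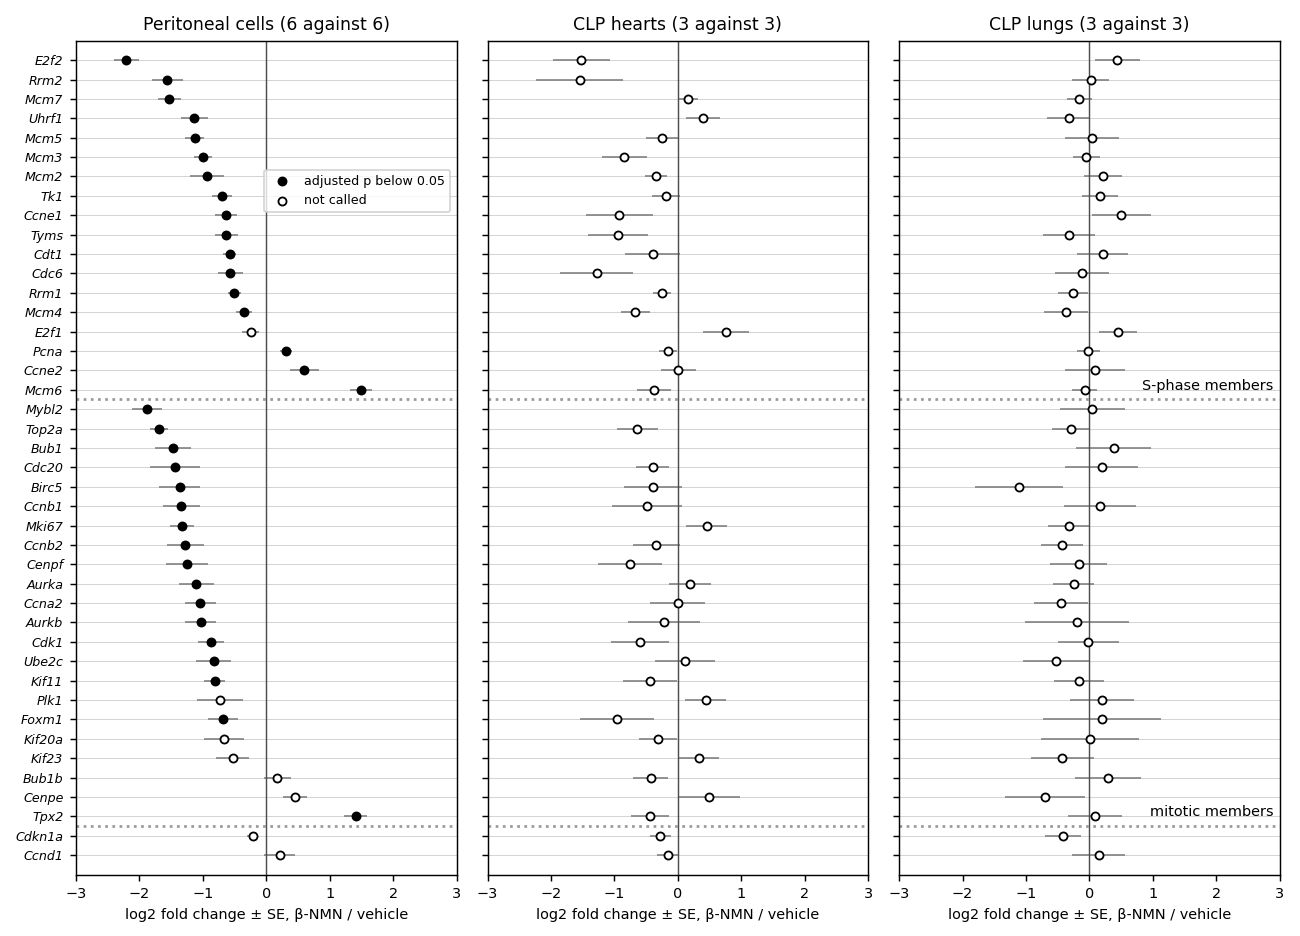
Log2 fold change ± SE, β-NMN over vehicle, of the 42 members in peritoneal cells (6 against 6), CLP hearts and CLP lungs (3 against 3 each), from edgeR; filled points have an adjusted p below 0.05, dotted lines divide S-phase members (top), mitotic members and Cdkn1a with Ccnd1 (bottom). The 34 filled points are all in peritoneal cells, where Mcm6 and Tpx2 lie far to the right; Bub1 and Mybl2 have no point in hearts because they did not pass the low-count filter.

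Levels in vehicle samples are set side by side as a description, since peritoneal cells and organs were counted in separate tables and each tissue was normalized on its own. The median S-phase member stood at 1.44 CPM per kb in peritoneal cells, 0.837 in hearts and 2.21 in lungs, and the median mitotic member at 0.396, 0.162 and 0.59. Cdkn1a led in each tissue (201, 61.4 and 110.2 CPM per kb) and Pcna came next (31.3, 13.7 and 24). They were followed by Cdt1 in peritoneal cells (13.4) and by Ccnd1 in hearts (4.87) and lungs (11.4). Mki67, behind Cdt1 in peritoneal cells at 8.92 CPM per kb, stood at 0.176 in hearts and 1.38 in lungs, and its ratio to Top2a per kb was 3.33 to 8.5 (median 5.79) in vehicle peritoneal cells, 0.682 to 1.39 (median 1.22) in hearts and 1.4 to 2.55 (median 1.51) in lungs. At the low end, Cenpf in peritoneal cells (0.0415) and in lungs (0.144) and Bub1 in hearts (0.0245) were the last of the 42.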

How the data were processed

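RNA was sequenced from peritoneal cells, hearts and lungs, 24 libraries in all. The authors deposited raw counts per gene symbol in 2 tables, 1 for peritoneal cells and 1 for the organs. Per the labels and the study's methods, they mapped poly(A) reads to mm10 with STAR (2.7.3a in the submitters' processing notes) and counted them with featureCounts 2.0.0; the annotation and strand setting are not given in the sources used here.

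Groups came from the titles and treatment labels. The source field of the CLP organs names thioglycollate whereas their titles and tissue fields name CLP, which was used. One β-NMN heart carries the number 3 that another heart also carries, and was taken as replicate 2.

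Each tissue was fitted on its own with edgeR 4.0.16 in R 4.3.3 (filterByExpr, TMM factors, estimateDisp, legacy quasi-likelihood F-test, Benjamini-Hochberg adjustment over all genes tested, threshold 0.05). Standard errors are the absolute log2 fold change divided by the square root of F. Log2 CPM used a prior count of 2 for the exact permutation tests. Exon length and overlap came from GENCODE M21 on GRCm38. Alternatives were DESeq2 1.42.0, limma 3.58.1 (voom with quality weights), other scalings, no filter, a replicate block, each library left out, and, added after seeing the data, splits by depth. Scripts were tested on simulated data.

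Members and lists were chosen with earlier results of these data known. Values by library were given for the called members of each class with the largest fold changes (up to 5 per direction), those against their class, the highest per kb, Cdkn1a, Ccnd1, Mki67, Pcna and Mcm2, and, where none was called, the 4 with the smallest p per class; from other lists, up to 3 per direction or the 1 with the smallest p. Some genes that this rule names are not reported here. Further members described with values were chosen after these were seen. No 2 libraries were duplicates. Replicate numbers did not pair vehicle with β-NMN samples, and the heart and lung of a mouse share that mouse. The labels do not say that libraries were prepared in batches.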

Additional observations from a re-analysis of the deposited data

Results flagged for a closer look

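In peritoneal cells, β-NMN replicate 6 was far below the other β-NMN libraries for Plk1 (0.1396 CPM, against 0.3825 to 0.6704) and for Kif23 (0.4421 CPM, against 1.224 to 1.908). These were 2 of 84 groups examined for a single distant library, and chance flags about 1 in 20. Neither gene was called.

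For Uhrf1, every β-NMN library was below every vehicle library in peritoneal cells (log2 fold change -1.134, called lower). In hearts the value was 0.3985 and was not called (edgeR adjusted p = 0.515), and it was 0.20 without vehicle replicate 2, the lowest heart; every β-NMN heart was above every vehicle heart, as for 11.6% of all genes tested there. The difference was not tested.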

How the results depend on the processing

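In peritoneal cells 30 members were called lower and 4 higher, and over other scalings, no filter, DESeq2, limma and the newer quasi-likelihood form these counts ran from 27 to 32 and from 3 to 5. Leaving out each library in turn gave 27 to 30 lower and 3 to 5 higher. With the replicate block the counts were 28 and 4, in samples whose numbers do not pair them: correlations of same-numbered libraries ran from -0.17 to 0.13 in peritoneal cells, from 0.07 to 0.24 in hearts and from -0.52 to 0.30 in lungs. In hearts, in lungs and in their comparison 0 members were called under every alternative run, the replicate block included. Chosen after seeing the data, the deep libraries alone gave 16 called lower and the shallow ones 12, with fewer samples in each, and depth class as a term gave 30. E2f1 then turned to 0.078 in deep and Bub1b to -0.011 in shallow libraries; neither was called.

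Signs of uncalled lung members also turned. Pcna was at 0.12 with library totals, 0.0095 with no filter and 0.017 with limma. With limma Ccnd1 was at -0.17, Cdc20 at -0.34, Cenpe at 0.0058 and Mcm4 at 0.034. Leaving out each lung in turn gave -0.040 to 0.023 for Pcna, -0.19 to 0.48 for Ccnd1, -0.22 to 0.59 for Cdc20, -1.02 to 0.21 for Cenpe and -0.55 to 0.067 for Mcm4. The turned values of Ccnd1, Cdc20, Cenpe and Mcm4 came without the second vehicle lung. The same alternative for other pathway genes, added after seeing the data, gave -1.17 to 0.037 for Rpa2 and -1.18 to 0.088 for Gadd45a in lungs, both positive without that lung. Library totals moved the median of all genes to -0.14 in hearts and 0.12 in lungs. In hearts the class medians were -0.086 for S-phase and -0.13 for mitotic members with limma. The causes were not tested. Lung replicate 2 of the vehicle group, with 8915366 counts, limits what can be read in lungs.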
